A study of Homo sapiens with 9 samples.

Results

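The 34 genes described here encode proteins of the lysosome and of autophagy. They comprise 4 lysosomal membrane glycoproteins, 9 peptidases, 6 glycosidases, 4 proteins that handle cholesterol and sphingolipids, 1 calcium channel, 4 proton pump subunits, 4 autophagy proteins, the transcription factor TFEB and the glycoprotein GPNMB. They were taken by symbol from the 25369 gene symbols of a deposited RNA-seq count table, and all 34 were among the 16117 genes that passed the filter on low counts. The cells were MCF10A, an immortalised and non-tumorigenic line of human mammary epithelium. They carried the retroviral vector pBABEpuro either empty or with HER2-CAV659E, a constitutively active mutant of the receptor tyrosine kinase HER2. The question the design raises is how this oncogene, a soft substrate and loss of the transcriptional coactivators YAP and TAZ each bear on the transcriptome. Every culture was transfected with siRNA, replated 24 h later and harvested 24 h after that, and total RNA depleted of ribosomal RNA was sequenced.

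Empty-vector cells were represented by 2 libraries with control siRNA on plastic (A and B, here the controls), 1 library with control siRNA on a polyacrylamide hydrogel of 0.5 kPa, and 2 libraries on plastic with YAP/TAZ siRNA, 1 with the reagent numbered 1 and 1 with the reagent numbered 3. HER2 cells were represented by 1 library with control siRNA on plastic, 1 with control siRNA on the hydrogel, and 1 each with YAP/TAZ siRNA 1 and YAP/TAZ siRNA 3 on plastic. Thus each hydrogel condition and the HER2 control had 1 library, and no library combined the hydrogel with YAP/TAZ siRNA. The labels do not say that libraries of the same group came from separate cultures. The p-values below therefore measure only the spread between these libraries. It may be technical and, in the siRNA groups, includes a difference in reagent.

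Lysosomes are acidic organelles in which cathepsins, glycosidases and lipid-handling proteins break down material delivered by endocytosis and by autophagy. The vacuolar proton pump acidifies their lumen, heavily glycosylated membrane proteins line it, and Atg8-family proteins and their receptors bring cytoplasmic cargo to it in autophagosomes. Many of these genes belong to the CLEAR network, whose promoters carry a palindromic E-box bound by TFEB and its relatives TFE3 and MITF. When the kinase mTORC1 is active, TFEB is phosphorylated and held in the cytoplasm. YAP and TAZ are coactivators of TEAD transcription factors, active in spread cells on stiff substrates and withdrawn from the nucleus on soft ones.

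The shallowest library, the HER2 control, held 24425556 counts and the deepest, empty-vector siRNA 3, held 78945981, and 3 counts corresponded to between 0.0371 and 0.131 CPM (counts scaled to the library's total and by TMM factors). The targeted transcripts followed the labels. YAP1 stood at 83.9, 85.1, 81.5, 14.3 and 14.3 CPM in empty-vector cells and 115, 71.2, 9.75 and 18.9 CPM in HER2 cells, in the order used throughout: control A, control B, hydrogel, siRNA 1 and siRNA 3 for empty-vector cells, and control, hydrogel, siRNA 1 and siRNA 3 for HER2 cells. WWTR1, which encodes TAZ, stood at 77.4, 76.9, 65.96, 14 and 21.6 and 169.6, 146, 28.97 and 48.2 CPM, and ERBB2, which encodes HER2, at 60.5, 57.7, 73.02, 73.5 and 95.5 and 614, 416, 442 and 361 CPM. The 8 mammary epithelial markers summed to between 6847 and 14380 CPM in empty-vector libraries and to between 888.3 and 1850 CPM in HER2 libraries, where CDH1 was at 1.18, 1.65, 0.832 and 0.238 CPM and KRT14 at 0.875, 0.711, 1.70 and 0.0852 CPM. Of the other markers, KRT5 stood at 581, 329, 646 and 213 CPM and ITGA6 at 1082, 967, 1147 and 624 CPM in HER2 cells. KRT17 stood there at 4.81, 0.953, 1.14 and 1.16 CPM, against 1364 and 1277 CPM in the empty-vector controls. TP63 was at 0.438, 0.626, 0.590 and 0.971 CPM (78.6 and 79.7 in those controls). LAMA3 was at 29.1, 19.2, 27.95 and 28.05 CPM (2291 and 2423), and EPCAM at 19.6, 19.8, 24.7 and 20.3 CPM (149 and 159). Markers of other cell types were low. The 8 macrophage markers summed to 11.96 and 11.7 CPM in the empty-vector controls, 35.8 on the hydrogel and 48.6 and 21.8 with siRNA 1 and 3, and to 7.75, 16.7, 21.4 and 11.3 CPM in HER2 cells. TYROBP was at 0 in all 9 libraries and PTPRC at 0 in 8. The 6 fibroblast markers summed to 5.86, 6.28, 61.5, 107 and 27.98 CPM in empty-vector cells and 5.78, 7.91, 30.7 and 22.4 CPM. The 6 melanocyte markers did not exceed 0.519 CPM in sum, with TYR and MLANA at 0 in every library. Macrophage and fibroblast sums therefore moved with the hydrogel and the siRNAs, mainly through CD14, CSF1R and DCN, and their part in the results below was not tested. In bulk RNA, fewer cells of a type and less RNA per cell cannot be told apart.

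Counts were tested in edgeR with a quasi-likelihood model, and p-values were adjusted over all 16117 genes. The group-means model had 1 mean per group and 3 residual degrees of freedom, and its common biological coefficient of variation was 0.408. It called 1 of the 34 genes in 1 comparison. The reagent model had in addition a single coefficient, common to both lines, for the difference between siRNA 3 and siRNA 1. It left 2 residual degrees of freedom, and its coefficient of variation was 0.209. Reading the siRNA numbers as pairing the libraries is a judgement, because they name reagents rather than days or batches. Below, rose, fell, called and counts of genes higher or lower refer to an adjusted p under 0.05 in the reagent model unless the other model is named, fold changes are on the log2 scale with their standard errors, and calls depend on this choice of model. Single libraries were taken to have the spread of the groups with 2 libraries. Only controls A and B had the same labels. In each siRNA group the 2 libraries differ in reagent, so the group-means spread includes the whole difference between reagents. The spread of the reagent model includes the part of that difference not shared by the lines.

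Summed over the 34 genes, transcripts stood at 3372 and 3412.5 CPM in the empty-vector controls, 5446 on the hydrogel, 6329 with siRNA 1 and 10308 with siRNA 3. In HER2 cells the sum was 2718.1 CPM in the control, 3789.1 on the hydrogel, 4437.1 with siRNA 1 and 7437.6 with siRNA 3. The order of conditions was thus the same in both lines, with the control lowest and siRNA 3 highest, and each HER2 library lay below its empty-vector counterpart. Per kilobase of transcript the list was led in the empty-vector controls by the carboxypeptidase CTSZ at 199.6, the tetraspanin CD63 at 188.4, the cysteine protease CTSB at 129.8 and the saposin precursor PSAP at 121.3 CPM per kb. At the low end were CTSK at 0.848, TPP1 at 1.05, CTSS at 1.11 and GPNMB at 0.261 CPM per kb.

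**Figure D1:**
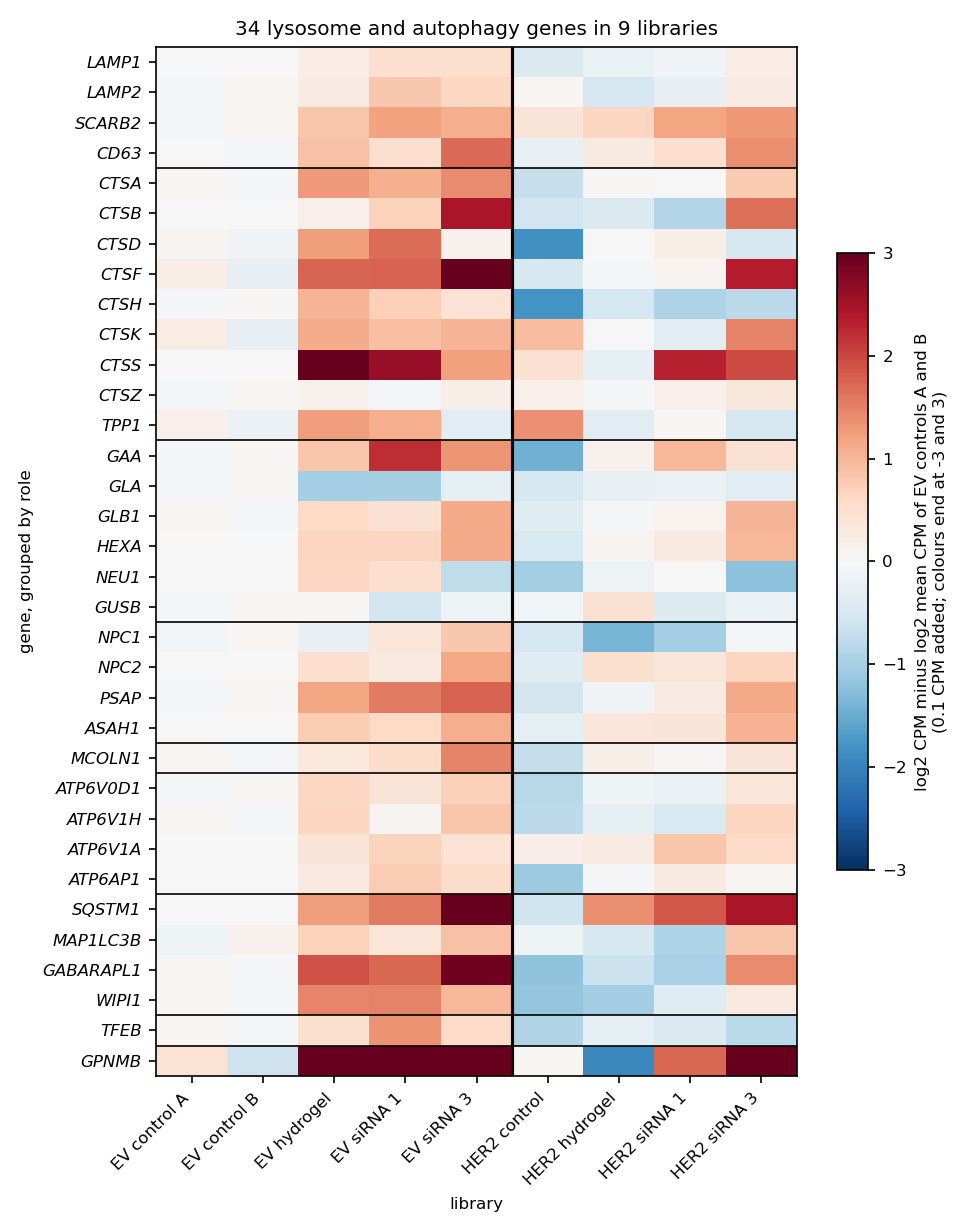
Log2 ratio of each of the 34 genes (rows, grouped by role) to the mean of empty-vector controls A and B, in each library of both lines (columns), on a colour scale from lower to higher. In empty-vector cells the siRNA and hydrogel columns are mostly on the higher side, with 31 and 30 genes above the control mean for siRNA 1 and siRNA 3 and 32 on the hydrogel. In HER2 cells 26, 31 and 26 genes lay above the HER2 control, a reference that the colours do not use.

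Promoters of the members were read for the CLEAR-type E-box. Of the 34 genes, 25 had an entry of 250 bases before to 50 after the gene start in RefSeq (GRCh38.p14). The word TCACGTGA, a palindrome that reads the same on both strands, stood in 5 of the 25 (20%), against 1.18% of the 27305 genes with an entry, that is 321 genes. Its core CACGTG, which every TCACGTGA contains, stood in 9 of the 25 (36%), against 8.77% of all genes. Besides the 5, these were CD63, CTSD, CTSF and NEU1. All genes here are those with an entry, whether or not expressed in these cells. Many of the 34 belong to the CLEAR network, as given above, so the higher share is not a result of these libraries. The 5 promoters with the full word are shown because their genes, a membrane protein, a pump subunit, a glycosidase, a channel and a protease, are among those tested below. Each line gives the 100 bases from 90 before the RefSeq start, in the direction of transcription, with TCACGTGA in capitals, and LAMP1, GAA and MCOLN1 hold it at 2 places.
LAMP1: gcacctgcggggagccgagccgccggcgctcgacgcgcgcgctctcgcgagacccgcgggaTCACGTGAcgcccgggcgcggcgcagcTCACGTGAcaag
ATP6V0D1: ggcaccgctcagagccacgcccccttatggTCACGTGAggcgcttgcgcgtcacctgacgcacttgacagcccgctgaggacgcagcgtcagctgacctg
GAA: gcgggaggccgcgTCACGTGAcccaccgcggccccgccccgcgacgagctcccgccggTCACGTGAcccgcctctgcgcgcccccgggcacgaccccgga
MCOLN1: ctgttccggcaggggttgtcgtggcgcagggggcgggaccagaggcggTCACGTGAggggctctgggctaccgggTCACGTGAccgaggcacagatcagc
CTSA: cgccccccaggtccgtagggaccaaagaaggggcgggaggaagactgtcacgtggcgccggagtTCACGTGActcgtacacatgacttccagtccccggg
The windows lie at chr13:113297149-113297248 (plus strand) for LAMP1, chr16:67481148-67481247 (minus strand) for ATP6V0D1, chr17:80101491-80101590 (plus strand) for GAA, chr19:7522534-7522633 (plus strand) for MCOLN1 and chr20:45891245-45891344 (plus strand) for CTSA. A match in these letters is a description and not a bound site, and no binding was measured in these libraries.

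Membrane glycoproteins of the lysosome were all higher with YAP/TAZ siRNA in empty-vector cells. LAMP1, one of the most abundant proteins of the lysosomal membrane, stood at 189, 189, 220.1, 269 and 275 CPM in empty-vector cells and 140.5, 164, 176 and 222 CPM in HER2 cells. LAMP2, its relative that also serves chaperone-mediated autophagy, stood at 191, 205, 236, 347 and 304 CPM in empty-vector cells and 206, 137, 167 and 236 CPM in HER2 cells. Both LAMP transcripts were highest in the siRNA libraries of empty-vector cells, while in HER2 cells LAMP2 with siRNA 1 and on the hydrogel lay below its control. LAMP1 rose by 0.53 ± 0.12 (adjusted p = 0.0326) and LAMP2 by 0.72 ± 0.18 (adjusted p = 0.0454) with siRNA in empty-vector cells. SCARB2, the receptor that carries glucocerebrosidase to the lysosome, stood at 199, 213, 365, 475 and 438 CPM and, in HER2 cells, 269, 324, 470.0 and 506 CPM. CD63, a tetraspanin of late endosomes and lysosomes, stood at 236, 229, 426, 330.0 and 757 CPM in empty-vector cells and 198, 279, 328 and 614 CPM in HER2 cells. In both lines the siRNA libraries of SCARB2 and CD63 lay above every control, and for CD63 siRNA 3 lay above siRNA 1. SCARB2 rose with siRNA by 1.15 ± 0.11 in empty-vector cells (adjusted p = 0.00726) and 0.86 ± 0.14 in HER2 cells (adjusted p = 0.0466), and on the hydrogel by 0.82 ± 0.13 in empty-vector cells (adjusted p = 0.0222). CD63 rose with siRNA by 1.11 ± 0.12 and 1.18 ± 0.15 in the 2 lines (adjusted p = 0.00805 and 0.0384).

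Peptidases differed widely between libraries, some by reagent and some by line. CTSA, a serine carboxypeptidase that also stabilises the hydrolases GLB1 and NEU1, stood at 44.1, 40.4, 103, 89.1 and 113 CPM in empty-vector cells and 26.3, 43.4, 41.8 and 72.5 CPM in HER2 cells. CTSB, an abundant cysteine protease, stood at 498, 508, 563, 806 and 2747 CPM in empty-vector cells and 337, 374, 271 and 1592 CPM in HER2 cells. CTSD, the main aspartic protease of the lysosome, stood at 119, 104, 268, 355 and 122 CPM in empty-vector cells and 31.8, 110.2, 126 and 79.5 CPM in HER2 cells. CTSB was far above the other libraries with siRNA 3 in both lines and, in HER2 cells, below the control with siRNA 1, whereas CTSD was higher with siRNA 1 than with siRNA 3 in both lines and its siRNA 3 library in empty-vector cells lay close to control A. CTSA rose with siRNA in empty-vector cells by 1.25 ± 0.15 (adjusted p = 0.0096), CTSB by 1.58 ± 0.20 (adjusted p = 0.0107) and CTSD by 0.92 ± 0.23 (adjusted p = 0.0421). The exons of CTSA share 21.1% of their bases with NEURL2 and PLTP on the opposite strand, which stayed under 1 CPM in every library, and whether counting used strand is not given in the sources used here.

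CTSF, a papain-like cysteine protease, stood at 7.72, 5.64, 22.6, 23.002 and 56.9 CPM in empty-vector cells and 4.73, 6.43, 7.11 and 34.8 CPM in HER2 cells. CTSH, a cysteine protease that acts mainly as an aminopeptidase, stood at 30.6, 32.4, 63.8, 51.7 and 42.7 CPM in empty-vector cells and 9.02, 21.9, 16.5 and 17.97 CPM in HER2 cells. CTSS, a cysteine protease best known for processing the invariant chain in antigen-presenting cells, stood at 4.49, 4.61, 53.3, 28.3 and 10.9 CPM in empty-vector cells and 6.30, 3.77, 23.1 and 17.99 CPM in HER2 cells. CTSH was lower in every HER2 library than in any empty-vector library, and CTSS was highest on the hydrogel in empty-vector cells but lowest on the hydrogel in HER2 cells. CTSF rose by 2.45 ± 0.31 with siRNA (adjusted p = 0.0102) and by 1.76 ± 0.34 on the hydrogel (adjusted p = 0.031) in empty-vector cells. On the hydrogel CTSH rose by 1.02 ± 0.18 (adjusted p = 0.0249) and CTSS by 3.55 ± 0.32 (adjusted p = 0.00997) in empty-vector cells. With siRNA in the same cells, CTSS rose by 1.97 ± 0.28 (adjusted p = 0.0126). TPP1, a tripeptidyl peptidase mutated in a neuronal ceroid lipofuscinosis, was low, at 4.18, 3.30, 9.11, 8.06 and 2.95 CPM in empty-vector cells and 9.80, 2.93, 3.90 and 2.59 CPM in HER2 cells. Its HER2 control lay above every other library, and it was the only member called higher in HER2 than in empty-vector cells on plastic (1.39 ± 0.35, adjusted p = 0.0477). Of the remaining peptidases, the bone collagenase CTSK ranged from 1.14 to 4.22 CPM and the carboxypeptidase CTSZ from 288 to 375 CPM, and neither passed in any comparison in either edgeR model.

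Glycosidases divided into some that were higher with both reagents and some that were not. GAA, the acid alpha-glucosidase that degrades glycogen, stood at 6.23, 6.57, 11.5, 30.1 and 16.2 CPM in empty-vector cells and 2.28, 6.96, 12.8 and 8.75 CPM in HER2 cells. GLB1, the lysosomal beta-galactosidase, stood at 62.9, 60.3, 93.6, 84.6 and 136 CPM in empty-vector cells and 48.2, 60.5, 66.1 and 126 CPM in HER2 cells. HEXA, the alpha subunit of beta-hexosaminidase, stood at 53.4, 51.7, 82.8, 82.1 and 115 CPM in empty-vector cells and 38.3, 55.9, 63.5 and 104 CPM in HER2 cells. For these genes the siRNA libraries lay above the control or controls of the same line, with siRNA 1 higher than siRNA 3 for GAA and the reverse for GLB1 and HEXA. GAA rose with siRNA by 1.79 ± 0.18 in empty-vector cells (adjusted p = 0.00726) and 2.22 ± 0.25 in HER2 cells (adjusted p = 0.0357). HEXA rose by 0.89 ± 0.12 and 1.09 ± 0.15 (adjusted p = 0.011 and 0.0405), and GLB1 by 0.8 ± 0.12 and 0.92 ± 0.15 (adjusted p = 0.0134 and 0.046). NEU1, the lysosomal sialidase, stood at 53.7, 52.4, 82.1, 75.2 and 31.4 CPM in empty-vector cells and 26.1, 47.6, 53.4 and 22.6 CPM in HER2 cells. In both lines NEU1 was above the control on the hydrogel and with siRNA 1 and below it with siRNA 3. The alpha-galactosidase GLA ranged from 24.02 to 49.9 CPM, its highest levels being the empty-vector controls, and the beta-glucuronidase GUSB from 38.6 to 77.3 CPM, and neither passed in any comparison in either edgeR model.

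Among proteins of lipid handling, PSAP and ASAH1 were higher in each siRNA and hydrogel library than in the controls of the same line. PSAP, the precursor of the saposins that present sphingolipids to their hydrolases, stood at 342, 354, 792, 1019 and 1192 CPM in empty-vector cells and 239, 326, 413 and 765 CPM in HER2 cells. ASAH1, the acid ceramidase, stood at 99.2, 99.1, 169.5, 151 and 210.2 CPM in empty-vector cells and 81.2, 128, 129 and 203 CPM in HER2 cells. PSAP rose by 1.67 ± 0.18 with siRNA (adjusted p = 0.00821) and by 1.18 ± 0.21 on the hydrogel (adjusted p = 0.0253) in empty-vector cells. ASAH1 rose by 0.85 ± 0.11 with siRNA in empty-vector cells (adjusted p = 0.0103) and by 1.0 ± 0.14 in HER2 cells (adjusted p = 0.0405). NPC1, the membrane protein that exports cholesterol from lysosomes, stood at 70.5, 77.8, 63.4, 95.1 and 129 CPM in empty-vector cells and 52.6, 28.03, 36.5 and 72.6 CPM in HER2 cells. NPC2, the soluble protein that hands cholesterol to it, stood at 106, 108, 152, 131 and 238 CPM in empty-vector cells and 83.7, 149.7, 137 and 166 CPM in HER2 cells. NPC1 was below the controls on the hydrogel in both lines and, in HER2 cells, with siRNA 1, while NPC2 was above them in each of these libraries. With siRNA in empty-vector cells NPC2 rose by 0.73 ± 0.16 (adjusted p = 0.032), and NPC1 differed by 0.59 ± 0.17 (adjusted p = 0.0577).

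The calcium channel and most pump subunits rose with siRNA in empty-vector cells. MCOLN1, the lysosomal calcium channel TRPML1, stood at 10.1, 9.69, 12.5, 14.4 and 28.2 CPM in empty-vector cells and 5.996, 11.3, 10.2 and 13.01 CPM in HER2 cells. ATP6V0D1, a subunit of the membrane sector of the pump, stood at 60.3, 62.5, 95.2, 79.9 and 102 CPM in empty-vector cells and 34.2, 56.3, 53.7 and 78.96 CPM in HER2 cells. ATP6V1H, a regulatory subunit of the cytosolic sector, stood at 59.8, 57.5, 92.1, 61.7 and 104 CPM in empty-vector cells and 34.05, 48.5, 42.7 and 91.1 CPM in HER2 cells. All 3 transcripts were above the controls of the same line in each siRNA and hydrogel library. MCOLN1 rose by 1.04 ± 0.20 (adjusted p = 0.0243) and ATP6V0D1 by 0.55 ± 0.11 (adjusted p = 0.0274) with siRNA in empty-vector cells. ATP6V1A, the catalytic subunit, stood at 145, 148, 193, 232 and 198 CPM in empty-vector cells and 169, 174, 263 and 218 CPM in HER2 cells. ATP6AP1, an accessory subunit, stood at 38.2, 37.4, 46.2, 64.5 and 55.5 CPM in empty-vector cells and 17.6, 36.4, 45.4 and 39.4 CPM in HER2 cells. The ATP6AP1 level of the HER2 control was less than that of any other library. ATP6AP1 rose with siRNA by 0.66 ± 0.11 in empty-vector cells (adjusted p = 0.0178) and 1.26 ± 0.15 in HER2 cells (adjusted p = 0.0369), and ATP6V1A by 0.54 ± 0.10 in empty-vector cells (adjusted p = 0.0201).

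Of the autophagy genes, SQSTM1 rose with siRNA in both lines and GABARAPL1 and WIPI1 in empty-vector cells. SQSTM1, the cargo receptor p62, stood at 285, 281, 669.7, 829.6 and 2235 CPM in empty-vector cells and 187, 749.6, 1027 and 1551 CPM in HER2 cells. GABARAPL1, an Atg8-family protein, stood at 14.4, 13.9, 52.9, 46.7 and 108 CPM in empty-vector cells and 6.04, 9.04, 7.16 and 38.2 CPM in HER2 cells. WIPI1, a phosphoinositide-binding protein of early autophagosomes, stood at 16.9, 15.8, 45.4, 45.9 and 32.6 CPM in empty-vector cells and 7.09, 7.84, 12.8 and 19.9 CPM in HER2 cells. For SQSTM1 and GABARAPL1, siRNA 3 gave the highest level in each line and every siRNA and hydrogel library lay above the controls of its own line, though GABARAPL1 on the hydrogel and with siRNA 1 in HER2 cells lay close to its control. SQSTM1 rose by 2.28 ± 0.22 in empty-vector cells (adjusted p = 0.00708) and by 2.77 ± 0.29 in HER2 cells (adjusted p = 0.034) with siRNA. GABARAPL1 rose by 2.36 ± 0.30 (adjusted p = 0.0108) and WIPI1 by 1.27 ± 0.29 (adjusted p = 0.0336) with siRNA in empty-vector cells, and their values in HER2 cells were 1.49 ± 0.40 (adjusted p = 0.0984) and 1.2 ± 0.38 (adjusted p = 0.131). Exons of WIPI1 share 24.3% of their bases with ARSG on the opposite strand, which ranged from 1.05 to 7.74 CPM. MAP1LC3B, which encodes LC3B, ranged from 12.002 CPM in HER2 siRNA 1 to 42.2 CPM in empty-vector siRNA 3 and passed in no comparison in either edgeR model; its near-identical copy MAP1LC3B2 did not exceed 0.144 CPM.

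TFEB, the regulator, was itself a low transcript, at 4.80, 4.41, 6.51, 11.97 and 6.87 CPM in empty-vector cells and 2.41, 3.80, 3.41 and 2.57 CPM in HER2 cells. GPNMB, a transmembrane glycoprotein of lysosomes and melanosomes that is induced in stressed macrophages, stood at 1.003, 0.436, 7.41, 108 and 30.3 CPM in empty-vector cells and 0.744, 0.114, 2.62 and 13.05 CPM in HER2 cells. Both were highest with siRNA 1 in empty-vector cells, and GPNMB in HER2 cells was highest with siRNA 3. TFEB rose by 0.98 ± 0.22 (adjusted p = 0.0329) and GPNMB by 6.64 ± 1.25 (adjusted p = 0.0222) with siRNA in empty-vector cells. In HER2 cells the siRNA difference was 0.3 ± 0.29 for TFEB (adjusted p = 0.562) and 3.34 ± 1.67 for GPNMB (adjusted p = 0.273). The macrophage and fibroblast marker sums given above were also highest in empty-vector siRNA 1, and their part in the GPNMB difference was not tested. Of the relatives of TFEB, TFE3 stood at 32, 32.8, 30.4, 35.9 and 36.99 CPM in empty-vector cells and 23.5, 20.8, 23.1 and 36.4 CPM in HER2 cells. MITF stood at 13.02, 13.6, 13.6, 8.24 and 6.48 CPM in empty-vector cells and 3.81, 3.20, 1.94 and 3.56 CPM in HER2 cells, and like TFEB it was lower in each HER2 library than in any empty-vector library.

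**Figure D2:**
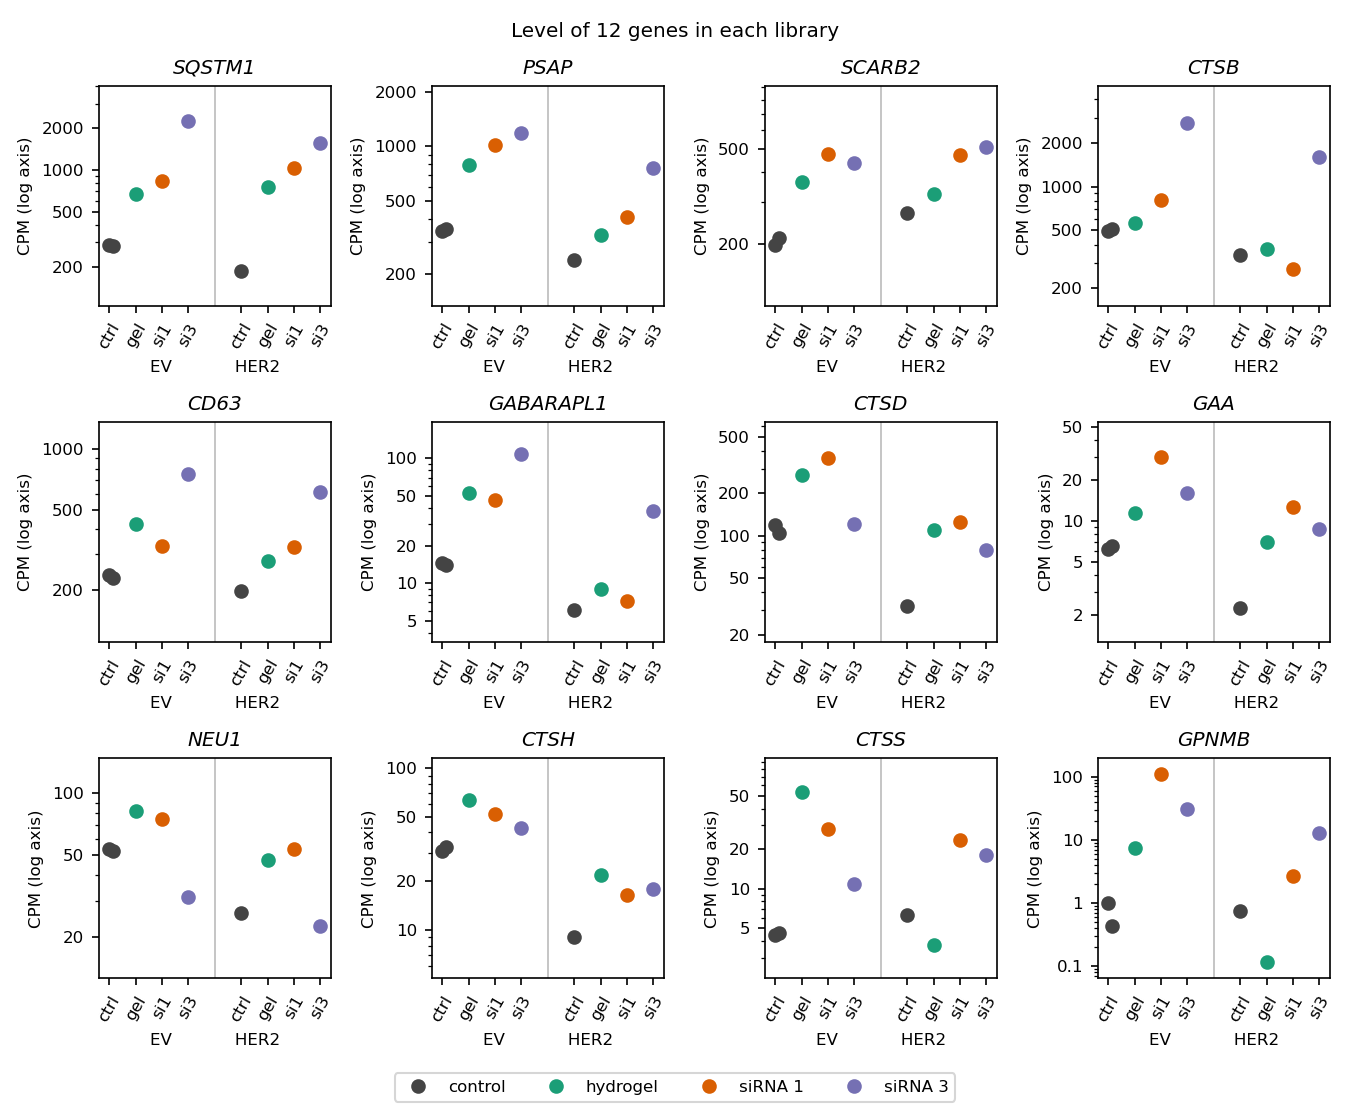
Level of 12 of the genes in CPM (log axis) in each of the 9 libraries, 1 point per library, with empty-vector (EV) cells left and HER2 cells right of the line. SQSTM1 reaches 2235 CPM with siRNA 3 against 285 and 280.7 CPM in the EV controls, CTSB is highest with siRNA 3 in each line, NEU1 lies below the control with siRNA 3 and above it with siRNA 1, and CTSS on the hydrogel is at 53.3 CPM in EV and 3.77 CPM in HER2 cells.

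Depletion of YAP and TAZ was followed in empty-vector cells by higher levels of most of the list. By the reagent model 25 of the 34 genes rose and 0 fell, where 12.1% of all genes tested rose and 13.6% fell. By role, these were 4 of 4 membrane glycoproteins, 6 of 9 peptidases, 3 of 6 glycosidases, 3 of 4 lipid-handling proteins, MCOLN1, 3 of 4 pump subunits, 3 of 4 autophagy proteins, TFEB and GPNMB. The median fold change over the 34 was 0.87, against 0.02 over all genes. In the libraries themselves, 29 of the 34 genes had both siRNA levels above both controls, which held for 32% of all genes, and GLA and GUSB had both below, which held for 30.8%. The group-means model called 0 of the 34 and 0 of all genes, with an unadjusted p under 0.05 for 21 of the 34, against 21.5% of all genes, and a smallest adjusted p of 0.07 among the 34 (SCARB2). DESeq2 with group means called 13 of the 34, all of them among the 25, and 14.4% of all genes. Without control A the reagent model called 6 and without control B 5, where it called 3.49% and 3.28% of all genes, and CTSB, CTSF, GABARAPL1, PSAP and SQSTM1 passed in all 3 fits. Without any 1 siRNA library, where its spread rests on controls A and B alone, it called 28 to 32 of the 34 and 52.1% to 66.2% of all genes.

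In HER2 cells the same depletion gave a list median of 0.93, but fewer calls. Of the 34 genes 9 rose and 0 fell, where 2.2% of all genes rose and 2.04% fell (4.24% together). The 9 were SCARB2 and CD63 of the membrane glycoproteins, GAA, GLB1 and HEXA of the glycosidases, ASAH1, the pump subunits ATP6V0D1 and ATP6AP1, and SQSTM1, and no peptidase passed. Both siRNA libraries lay above the single control for 25 of the 34 genes, against 32.9% of all genes, and both below it for GUSB and TPP1, against 29.9%. The group-means model called 0 of the 34 and 0 of all genes, with 14 of the 34 and 10.9% of all genes at an unadjusted p under 0.05. DESeq2 called 4 of the 34 (ATP6AP1, GAA, SCARB2 and SQSTM1) and 3.33% of all genes. Without control A or control B the reagent model called 0 of the 34 and 0 of all genes, and without any 1 siRNA library 28 to 31 of the 34 and 44.1% to 51.3% of all genes. The difference between the lines in the siRNA effect was tested as an interaction, and 0 of the 34 passed in either edgeR model or in DESeq2. At an unadjusted p under 0.05 the counts were 1 of 34 (2.94%) in the group-means model and 4 of 34 (11.8%) in the reagent model, below the 4.57% and 15% of all genes. TPP1 came nearest, at -2.01 ± 0.46 (adjusted p = 0.235 in the reagent model), HER2 relative to empty-vector cells.

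**Figure D3:**
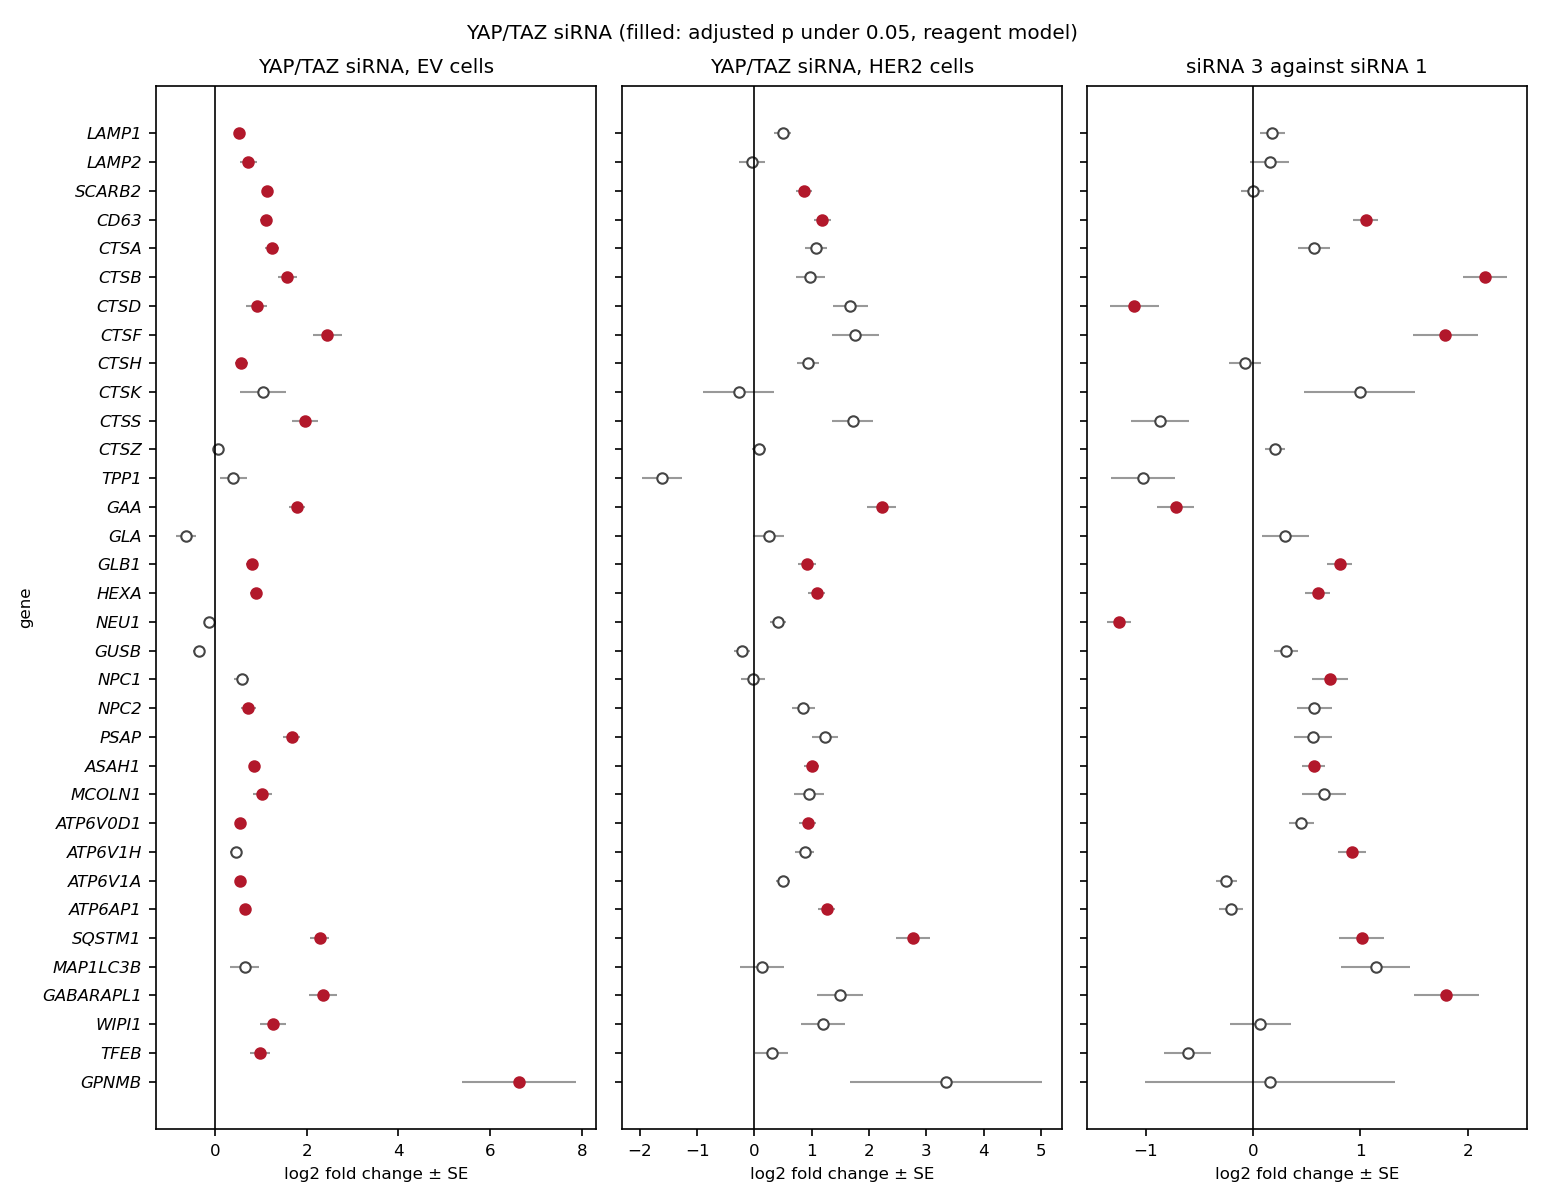
Log2 fold change with YAP/TAZ siRNA against control siRNA (point) and its standard error (bar) for each of the 34 genes in empty-vector and HER2 cells in the reagent model, with genes past an adjusted p of 0.05 filled. In empty-vector cells 25 points are filled, all right of 0, and in HER2 cells 9 are. A further panel shows siRNA 3 against siRNA 1 over both lines, with 10 filled points right of 0 and 3 left of it.

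The reagents did not act alike on every gene. Measured against siRNA 1 over both lines, siRNA 3 gave higher levels of 10 of the 34 genes, where 7.36% of all genes were called higher, and lower levels of 3, where 9.36% were called lower. The 10 were ASAH1, ATP6V1H, CD63, CTSB, CTSF, GABARAPL1, GLB1, HEXA, NPC1 and SQSTM1. CTSB differed by 2.16 ± 0.21 (adjusted p = 0.00861), GABARAPL1 by 1.8 ± 0.30 (adjusted p = 0.0227), CTSF by 1.79 ± 0.30 (adjusted p = 0.0227) and CD63 by 1.05 ± 0.12 (adjusted p = 0.0108). The 3 lower with siRNA 3 were NEU1 at -1.25 ± 0.11 (adjusted p = 0.00787), CTSD at -1.11 ± 0.23 (adjusted p = 0.0364) and GAA at -0.72 ± 0.17 (adjusted p = 0.0498). GAA lay at the threshold and missed it with RLE factors (adjusted p = 0.0555), with upper quartile factors (adjusted p = 0.0532) and without a filter on low counts (adjusted p = 0.0504). Without control A or control B 5 of the 34 were called, namely CD63, CTSB, CTSF, GABARAPL1 and NEU1 in both, where 4.45% and 4.41% of all genes were called. Without any 1 siRNA library 28 to 31 were called, and 53.9% to 58% of all genes. DESeq2 called 20, and 24.5% of all genes. Both reagents target YAP and TAZ, so each call of the siRNA comparisons above is for the average of both and may rest on either. By single library, 13 of the 34 genes were at least 2-fold above the control mean in empty-vector siRNA 1 and 17 in empty-vector siRNA 3, where 18% and 14.7% of all genes were. In HER2 cells the counts were 7 and 19 of the 34, where 14.1% and 17% of all genes were.

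On the soft hydrogel, where YAP1 and WWTR1 transcripts were not depleted, the list was also higher in cells with the empty vector. By the reagent model 18 of the 34 genes rose and 0 fell, where 10.2% of all genes rose and 9.95% fell (20.2% together). These were SCARB2 and CD63, 5 of 9 peptidases (CTSA, CTSD, CTSF, CTSH and CTSS), 4 of 6 glycosidases (GAA, GLB1, HEXA and NEU1), PSAP and ASAH1, the pump subunits ATP6V0D1 and ATP6V1H, and 3 of 4 autophagy proteins (SQSTM1, GABARAPL1 and WIPI1). GABARAPL1 rose by 1.91 ± 0.34 (adjusted p = 0.0264), WIPI1 by 1.47 ± 0.33 (adjusted p = 0.0399), CTSA by 1.29 ± 0.18 (adjusted p = 0.0175) and SQSTM1 by 1.24 ± 0.24 (adjusted p = 0.0312). The median over the 34 was 0.67, with 32 above 0 and GLA and NPC1 below, against 0.01 over all genes. TFEB on the hydrogel differed by 0.5 ± 0.26 (adjusted p = 0.228) and LAMP1 by 0.22 ± 0.14 (adjusted p = 0.31). The comparison rests on 1 hydrogel library and shares controls A and B with the siRNA comparison. The group-means model called 0 of the 34 and 0 of all genes, with 8 of the 34 (23.5%) and 19% of all genes at an unadjusted p under 0.05. DESeq2 called 7 of the 34, of which 6 were among the 18, and 11.6% of all genes. Without control A or control B the reagent model called 1, CTSS, where it called 2.15% and 1.93% of all genes, and without any 1 siRNA library 31 or 32 of the 34 and 64.3% to 64.5% of all genes.

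In HER2 cells 0 of the 34 passed on the hydrogel in either edgeR model, where the reagent model called 0.0372% of all genes higher and 0.149% lower. At an unadjusted p under 0.05 the reagent model had 15 of the 34 higher and 2 lower, against 24.4% of all genes in either direction, and the group-means model 4 (11.8%), all higher, against 9.73%. DESeq2 called 1, CTSH, and 1.94% of all genes. The median over the 34 was 0.47, with 26 above 0. Nearest to the threshold were SQSTM1 at 2.0 ± 0.30 (adjusted p = 0.0602), ATP6AP1 at 1.04 ± 0.16 (adjusted p = 0.0606), GAA at 1.61 ± 0.27 (adjusted p = 0.0644) and CTSH at 1.28 ± 0.22 (adjusted p = 0.0671). Both groups had 1 library, so the spread came from other groups, and without any 1 siRNA library 30 or 31 of the 34 and 49.2% to 49.7% of all genes were called. The interaction of line and hydrogel passed for 0 of the 34 in either edgeR model, with 3 of 34 (8.82%) in the group-means model and 5 of 34 (14.7%) in the reagent model at an unadjusted p under 0.05, below the 11.8% and 28% of all genes. CTSS came nearest in the reagent model, at -4.29 ± 0.52 (adjusted p = 0.0709), the fold change of HER2 cells less that of empty-vector cells, followed by TPP1 at -3.03 ± 0.55 (adjusted p = 0.0766). DESeq2 called 2 interactions, where it called 3.1% of all genes, CTSS at -4.35 ± 0.96 (adjusted p = 0.00146) and GPNMB at -6.13 ± 1.74 (adjusted p = 0.0213). Without any 1 siRNA library the reagent model called 24 or 25 interactions with the hydrogel and 13 to 24 with the siRNAs, where it called 52.9% to 53.1% and 31.4% to 45.2% of all genes.

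**Figure D4:**
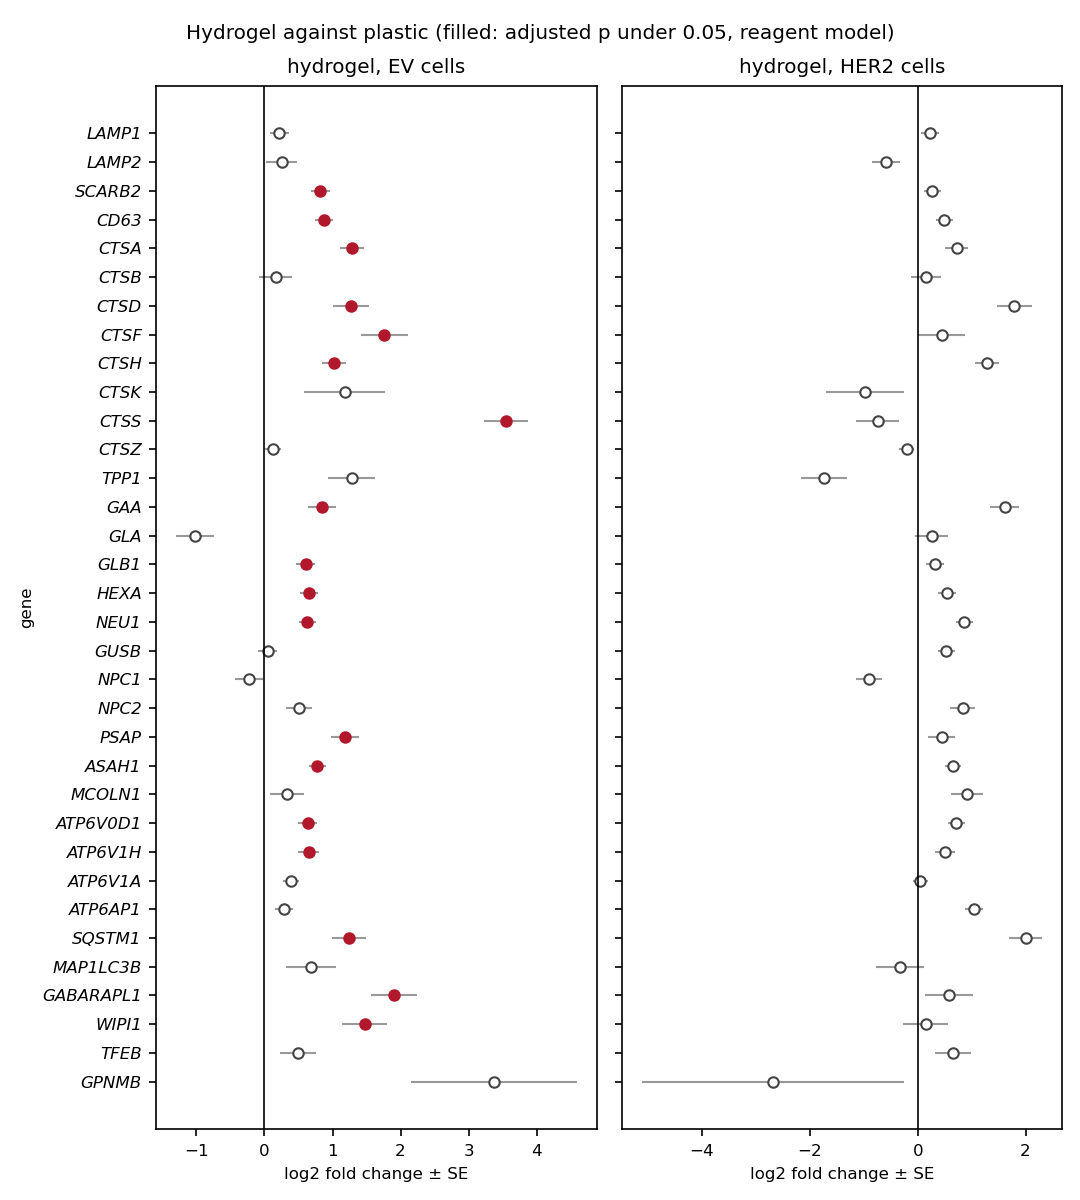
Log2 fold change on the 0.5 kPa hydrogel against plastic (point) and its standard error (bar) for each of the 34 genes in empty-vector and HER2 cells in the reagent model, with genes past an adjusted p of 0.05 filled. In empty-vector cells 18 points are filled, all right of 0, and in HER2 cells none is.

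Several members were called lower in HER2 than in empty-vector cells in each setting, and the calls depended on the model and on controls A and B. On plastic with control siRNA, 7 of the 34 genes were lower in HER2 than in empty-vector cells and 1 was higher, where 13.2% of all genes were called lower and 9.08% higher. In either direction the share called was 23.5% of the 34 and 22.3% of all genes, and so nearly the same. The lower genes were CTSH at -1.81 ± 0.21 (adjusted p = 0.0097), CTSD at -1.81 ± 0.30 (adjusted p = 0.0189), GAA at -1.49 ± 0.25 (adjusted p = 0.018), ATP6AP1 at -1.1 ± 0.15 (adjusted p = 0.0126), NEU1 at -1.02 ± 0.14 (adjusted p = 0.0132), ATP6V0D1 at -0.84 ± 0.15 (adjusted p = 0.0204) and ATP6V1H at -0.78 ± 0.17 (adjusted p = 0.0318), and the higher one was TPP1. The median was -0.49, against -0.08 over all genes. The group-means model called 0 of the 34, where it called 1.03% of all genes, with 6 of the 34 (17.6%) at an unadjusted p under 0.05, below the 20.8% of all genes. DESeq2 called 3, ATP6AP1, CTSD and CTSH, where it called 14.4% of all genes. Without control A the reagent model called 0 of the 34 and without control B 1, where it called 3.14% and 3.86% of all genes, and without any 1 siRNA library 29 or 30 of the 34 and 59.6% to 60% of all genes. The mammary epithelial markers were lower in HER2 cells in the same comparisons, as given above, and their part in these differences was not tested.

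On the hydrogel 14 of the 34 were lower in HER2 cells and 0 higher, where 14.6% of all genes were lower and 11% higher. They were CTSA, CTSD, CTSF, CTSH, CTSS and TPP1 of the peptidases, GLB1 and NEU1, NPC1 and PSAP, ATP6V0D1 and ATP6V1H, and GABARAPL1 and WIPI1. CTSS differed by -3.82 ± 0.42 (adjusted p = 0.00854), GABARAPL1 by -2.55 ± 0.43 (adjusted p = 0.0195), WIPI1 by -2.53 ± 0.42 (adjusted p = 0.0188) and CTSH by -1.54 ± 0.21 (adjusted p = 0.0133). The median over the 34 was -0.77, against -0.08 over all genes. The group-means model called 0 of the 34, where it called 1.51% of all genes (1.34% lower), with 6 of the 34 (17.6%) at an unadjusted p under 0.05, below the 23.5% of all genes. DESeq2 called 4, where it called 17% of all genes. Without control A or control B the reagent model called 7, where it called 11.7% and 11.6% of all genes, with CTSF, CTSH, CTSS, GABARAPL1, PSAP and WIPI1 in all 3 fits. Without any 1 siRNA library it called 29 or 30 of the 34 and 67.4% to 67.7% of all genes.

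Under YAP/TAZ siRNA 17 of the 34 were lower in HER2 cells and 0 higher, where 17.5% of all genes were lower and 15.4% higher. They were LAMP1 and LAMP2, 5 peptidases (CTSA, CTSB, CTSD, CTSF and CTSH), GAA and NEU1, NPC1 and PSAP, MCOLN1, ATP6V0D1 and ATP6AP1, GABARAPL1 and WIPI1, and TFEB. GABARAPL1 differed by -2.09 ± 0.31 (adjusted p = 0.0103), TFEB by -1.62 ± 0.22 (adjusted p = 0.00921) and CTSH by -1.45 ± 0.15 (adjusted p = 0.00517). CTSH was also the only member called by the group-means model in any comparison, at -1.45 ± 0.21 (adjusted p = 0.0263), where that model called 5.84% of all genes, 4.13% lower and 1.71% higher. It missed the threshold of that model without control A (adjusted p = 0.11), control B (adjusted p = 0.11), empty-vector siRNA 1 (adjusted p = 0.0836) or HER2 siRNA 1 (adjusted p = 0.0549). Both HER2 siRNA libraries lay below both empty-vector siRNA libraries for 14 of the 34 genes, against 28% of all genes, and above them for 0, against 23.3%. DESeq2 called 4 of the 34, CTSH, GPNMB, TFEB and WIPI1, where it called 21.1% of all genes. Without control A or control B the reagent model called 10, where it called 15% and 14.9% of all genes, with CTSA, CTSB, CTSD, CTSF, CTSH, GABARAPL1, NPC1, PSAP, TFEB and WIPI1 in all 3 fits. Without siRNA 1 of either line it called 23 of the 34 and at most 58.3% of all genes, and without siRNA 3 of either line 30 of the 34 and at most 66.1% of all genes.

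**Figure D5:**
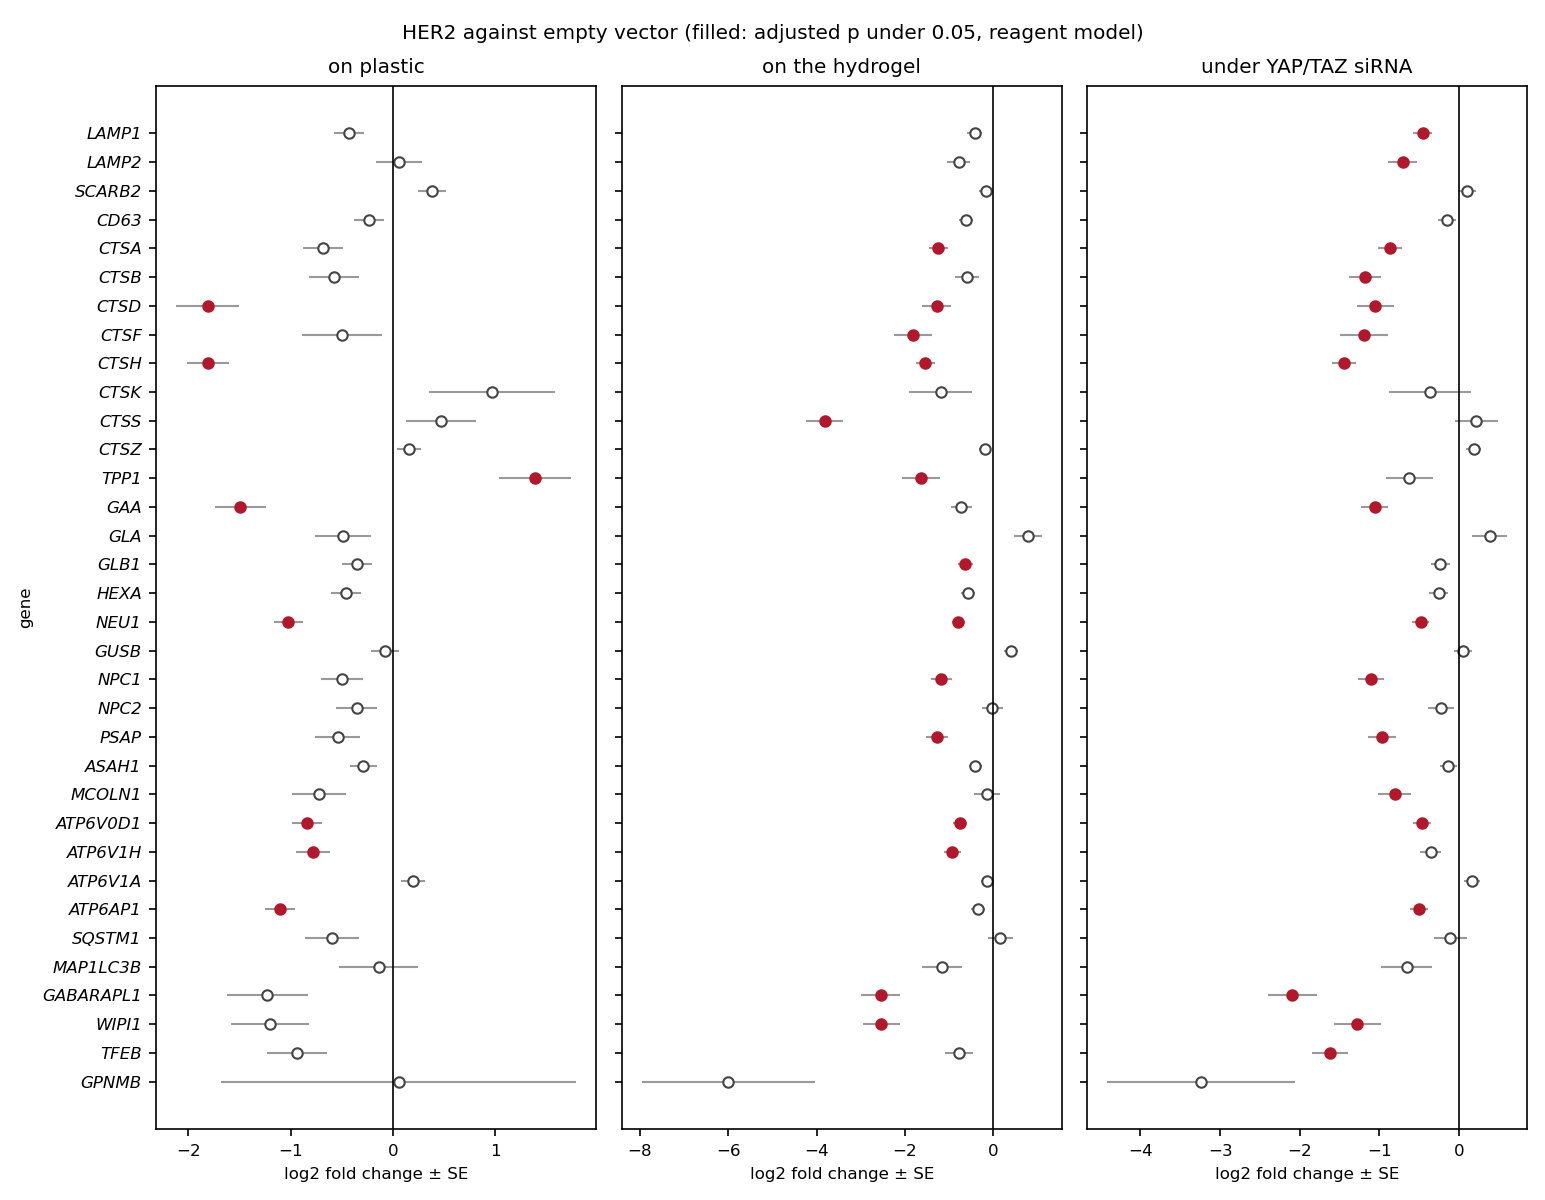
Log2 fold change in HER2 against empty-vector cells (point) and its standard error (bar) for each of the 34 genes on plastic, under YAP/TAZ siRNA and on the hydrogel in the reagent model, with genes past an adjusted p of 0.05 filled. Filled points lie left of 0 (7 for plastic, 17 for siRNA and 14 for the hydrogel) except TPP1 on plastic.

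Another 144 genes of the lysosome and of autophagy, 141 of them past the filter, were counted in the reagent model beside these 34. With siRNA in empty-vector cells 51 of the 141 rose and 4 fell (36.2% and 2.84%, against 12.1% and 13.6% of all genes). The 51 included 15 of 33 other hydrolases and activators, 6 of 14 other pump subunits, 9 of 15 other Atg8 proteins and receptors, 9 of 22 MiT/TFE and mTORC1 genes, 6 of 30 genes of the autophagy machinery, 4 of 18 other membrane proteins and 2 of 9 genes of mannose 6-phosphate sorting. Among genes averaging at least 2 in log2 CPM, the largest rises were those of the cysteine proteases CTSO and CTSV. Their fold changes were 2.05 ± 0.19 (adjusted p = 0.00708) and 1.76 ± 0.37 (adjusted p = 0.0293). The largest falls were those of NAAA, an amidase of N-acylethanolamines, and ATG4C, a protease of Atg8 proteins. Their fold changes were -0.72 ± 0.17 (adjusted p = 0.0363) and -0.66 ± 0.14 (adjusted p = 0.029). The NAAA call came from siRNA 3 alone, where the level was 3.30 CPM. Under siRNA 1 NAAA was at 13.3 CPM, higher than either control (10.7 and 11.1 CPM). In HER2 cells 12 of the 141 rose (8.51%) and 0 fell with siRNA, against 2.2% and 2.04% of all genes, with the receptor of endoplasmic reticulum autophagy FAM134B at 1.79 ± 0.25 (adjusted p = 0.0405) and the Atg8 protein GABARAP at 1.62 ± 0.17 (adjusted p = 0.0333) first in size. The median over the 141 was 0.44 in both lines. Without control A or control B, few of the 141 passed in the reagent model with siRNA in empty-vector cells. No call remained in HER2 cells, among the 141 or among all genes. The share of all genes called fell in the same fits. In empty-vector cells the share of the 141 then lay close to that of all genes, so the excess given above was not seen. The group-means model called 0 of the 141 and 0 of all genes with siRNA in both lines.

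On the hydrogel 38 of the 141 rose and 5 fell in empty-vector cells (27% and 3.55%, against 10.2% and 9.95% of all genes), and 0 passed in HER2 cells, where 0.186% of all genes did. The pump subunit ATP6V1C2, at 2.54, 2.15, 29.5, 38.7 and 1.75 CPM in empty-vector cells, rose there by 3.65 ± 0.59 (adjusted p = 0.0221) and CTSO by 2.38 ± 0.21 (adjusted p = 0.00997), while the sulfatase ARSB fell by 1.29 ± 0.27 (adjusted p = 0.0342) and the pump subunit TCIRG1 by 1.17 ± 0.26 (adjusted p = 0.0379). In the 4 HER2 libraries ATP6V1C2 stood at 0, 0, 0.0454 and 0.0511 CPM, so no fold between the lines is given for it. Between the lines, 10 of the 141 were higher and 32 lower in HER2 cells on plastic (7.09% and 22.7%, against 9.08% and 13.2% of all genes). The counts were 7 higher and 38 lower on the hydrogel (4.96% and 27%, against 11% and 14.6%), and 10 higher and 50 lower under siRNA (7.09% and 35.5%, against 15.4% and 17.5%), so the share of higher genes lay below that of all genes in each setting. Without control A or control B, fewer of the 141 passed for the hydrogel in empty-vector cells and between the lines in each setting. The share of all genes called fell in the same fits. The share of the 141 in either direction then lay close to that of all genes for the hydrogel in empty-vector cells. Between the lines it lay below that of all genes on plastic, close to it on the hydrogel and a little above it under siRNA. Higher in HER2 cells were the mitophagy receptors BNIP3L on plastic (1.7 ± 0.18, adjusted p = 0.00831) and BNIP3 with siRNA (1.97 ± 0.19, adjusted p = 0.00456) and on the gel (1.78 ± 0.27, adjusted p = 0.0157). The cathepsin CTSL was higher on plastic (1.49 ± 0.35, adjusted p = 0.0408) and under siRNA (1.45 ± 0.31, adjusted p = 0.0244), and ARSB on the hydrogel (1.91 ± 0.30, adjusted p = 0.0167). Lower in HER2 cells were, besides ATP6V1C2, the pump subunit ATP6V0B on plastic (-2.16 ± 0.41, adjusted p = 0.0247), the autophagy receptor OPTN on the hydrogel (-2.45 ± 0.17, adjusted p = 0.00305) and CTSV under siRNA (-3.29 ± 0.41, adjusted p = 0.00711). Between the reagents, 26 of the 141 were higher and 11 lower with siRNA 3 than with siRNA 1 (18.4% and 7.8%, against 7.36% and 9.36% of all genes), the Rag GTPase RRAGB (1.49 ± 0.16, adjusted p = 0.0104) and CTSL (1.47 ± 0.31, adjusted p = 0.0375) leading the first and ATP6V1C2 (-4.05 ± 0.78, adjusted p = 0.0308) and NAAA (-2.15 ± 0.18, adjusted p = 0.00739) the second.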

How the data were processed

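The deposited table holds raw read counts per gene for the 9 libraries. Per the submitters' processing notes, the tools were STAR 2.5.3a, featureCounts and edgeR with the genome build hg19; annotation, strand and the treatment of reads mapping to several places are not given in the sources used here. The table had 25370 entries; 1 had no symbol, held 0 counts and was left out. Genes were filtered with filterByExpr (minimum count 10), scaled by TMM and tested in edgeR 4.0.16 (R 4.3.3) with glmQLFit and glmQLFTest, with Benjamini-Hochberg adjustment over all 16117 genes and a threshold of 0.05. DESeq2 1.42.0, RLE and upper quartile factors, other count minimums and leaving out libraries were alternatives.

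The siRNA libraries were paired between the lines by reagent number in the reagent model, from the labels. As a check, the log2 ratio of siRNA 3 to siRNA 1 was correlated between the lines (Pearson r = 0.415 across 16117 genes, which are not independent replicates). Controls A and B differed by more than sampling noise (chi-square of 12.15 per degree of freedom), so they were not 1 library deposited again and counted as 2 samples. This does not show that they came from separate cultures. The siRNA pairs, whose libraries differ in reagent, stood at 523.5 in empty-vector cells and 661.9 in HER2 cells, so A and B were much closer to each other.

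Members, gene lists and tests were chosen with earlier results of these data known. Members that passed in at least 1 comparison are given with all their values, the others by range; of the other genes, the 2 with the largest fold change in each direction and a mean log2 CPM of at least 2 are named for each comparison. Gene lengths and exon overlap come from GENCODE on GRCh38 and promoters from RefSeq on GRCh38.p14, matched by symbol; no coordinates of the counts' own build were used. Depth limits low genes: the CPM of 3 counts given in the report covers counting error only.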

Additional observations from a re-analysis of the deposited data

How the results depend on the processing

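Counts of called members depended on the model. The group-means model called 0 of the 34 in each comparison except HER2 against empty vector under YAP/TAZ siRNA, where it called 1. With the replicate block by siRNA reagent the counts were 8 for HER2 on plastic, 18 for the hydrogel and 25 for siRNA in empty-vector cells, 9 for siRNA in HER2 cells, 14 for HER2 on the hydrogel and 17 for HER2 under siRNA. DESeq2 gave 3, 7, 13, 4, 4 and 4 in that order, 1 for the hydrogel in HER2 cells, 2 for the interaction of line and hydrogel, and 20 against 13 for siRNA 3 against siRNA 1. With no filter on low counts the group-means model called 1 for HER2 on plastic, 4 for siRNA in empty-vector cells and 2 for HER2 on the hydrogel. Of all genes it called 2.07%, 2.46% and 4.08% there. With a minimum count of 50 it called 1 for HER2 on plastic, where it called 1.26% of all genes. Leaving out 1 library at a time, over both edgeR models, gave 0 to 30 for HER2 on plastic, 0 to 32 for the hydrogel and 0 to 32 for siRNA in empty-vector cells, 0 to 31 for each in HER2 cells, 0 to 30 for HER2 on the hydrogel and under siRNA, 0 to 25 and 0 to 24 for the interactions with hydrogel and siRNA, and 5 to 31 for siRNA 3 against siRNA 1. The high ends come from fits of the block model without 1 siRNA library, in which controls A and B alone set the spread and which called 31.4% to 67.7% of all genes. Medians over the 34 were judged against their SD between libraries of a group, 0.333 pooled over 3 groups. In the siRNA groups the 2 libraries differ in reagent, so this SD includes the difference between reagents. By library, the median log2 ratio to the HER2 control was 0.659 with HER2 siRNA 1 and 1.18 with HER2 siRNA 3. Medians moved by less than 0.333 except for HER2 against empty vector under siRNA, which ran from -0.804 without HER2 siRNA 3 to -0.225. In that comparison, in the group-means model without 1 library at a time, CTSB ran from -2.71 to 0.21, above 0 without empty-vector siRNA 3, and NEU1 from -1.25 to 0.26, above 0 without empty-vector siRNA 1 or HER2 siRNA 3 (0.0052). The cause was not tested. With 1 or 2 libraries per group, and the HER2 control the shallowest, these counts carry little information on genes of a few CPM.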
